A study of Mus musculus with 12 samples.

Results

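The genes described here are the kinesins, centromere proteins and spindle regulators of mouse skin and squamous cell carcinoma. They were chosen by name among the protein-coding symbols: every Kif gene followed by a number, every Cenp gene followed by 1 letter, and 16 named regulators of the spindle and kinetochore. The rule took 71 of 34303 symbols in the table, of which 22311 are protein-coding. The rule itself used no measured value, but the members were chosen with earlier results of these data known. Of the 71 members, 38 are Kif genes, 17 are Cenp genes and 16 are the named regulators. By role, 43 were listed under mitosis. They are 11 mitotic kinesins, 16 centromere proteins and 5 mitotic kinases and passenger complex proteins. With them are 6 spindle checkpoint genes and 5 kinetochore and spindle assembly genes. The other 28 are kinesins of transport and other roles, with the centriolar protein Cenpj counted among them.

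RNA-seq libraries of dorsal skin and of cutaneous squamous cell carcinoma (cSCC) were compared between wild-type (WT) mice and mice that lack TAp63, all on the C57Bl6 strain. TAp63 denotes those products of the Trp63 gene whose N terminus includes the transactivation domain. WT skin (n = 3) and TAp63-/- skin (n = 3) were taken from untreated, shaved animals at 4 weeks of age. WT cSCC (n = 2) and TAp63-/- cSCC (n = 4) were recorded at an age of 35 weeks. They came from mice given ultraviolet radiation 3 times a week at 2.5 kJ/m2. Tumours and skin therefore differ in age and in irradiation as well as in tissue. They also differ in sex, since all 6 skin libraries were male and 5 tumours female by sex-linked genes. Tumour library names begin with LM and skin names with Su, and the labels do not say what the names stand for. The contributions of age, irradiation, name series and tissue cannot be told apart, and 1 tumour alone separates sex from tissue. The labels do not say whether each library is a separate animal, so p-values measure the spread between these libraries.

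Cells in mitosis build a spindle of microtubules, and each chromosome binds it through a kinetochore assembled on centromeric chromatin. Kinesins are motors that walk along microtubules or take their ends apart. One set of them sorts chromosomes and forms the spindle, while others carry vesicles and organelles in cells at any stage. The Aurora and Polo kinases drive spindle assembly, the chromosomal passenger complex corrects faulty attachments, and the spindle checkpoint holds the anaphase-promoting complex until all kinetochores are attached. In skin, dividing cells lie mainly in the basal epidermis and in the matrix of growing hair follicles.

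Many genes of mitosis carry a pair of short promoter elements, the CHR (cell cycle genes homology region) and the CCAAT box. Of the 43 mitotic members, 28 rose in tumours and none fell, where 19.1% of all genes tested rose and 18.4% fell. Promoters are shown for that reason, and the part of these elements in the rise was not tested. RefSeq windows (GRCm38.p6) of 300 bases, 250 before and 50 after the start site, were found for 61 of the 71 members. TTTGAA or its reverse complement TTCAAA, the CHR core, occurred in 24 of 43 windows of mitotic members (55.8%). It occurred in 3 of 26 windows of the transport and other kinesins (11.5%) and in 3400 of 21263 windows of protein-coding genes (16.0%). CCAAT or its reverse complement ATTGG occurred in 29 of the 43 mitotic windows (67.4%), in 9 of 26 transport windows (34.6%) and in 38.2% of all. Both motifs stood in 20 mitotic windows (46.5%), 2 transport windows (7.69%) and 6.38% of all. In the 150 bases before the start site alone, both motifs stood in 7 of the 43 mitotic stretches (16.3%), in 1 of 26 transport stretches (3.85%) and in 2.21% of all. The 43 mitotic windows belong to 39 of the mitotic members, and the CHR core occurred in 22 of these 39. The same gene can have more than 1 window, and a match describes letters only.

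Below are the 150 bases before the start site of 2 kinesins and 2 centromere genes that rose in tumours, 5' to 3' on the gene's strand, with the motifs in capitals. They were picked, after the matches were seen, to show the motifs and are not typical of the members. Kif22 (chr7:127042421-127042570, minus strand), Cenpn (chr8:116921590-116921739, plus strand) and Cenpw (chr10:30200541-30200690, minus strand) hold both motifs. Kif18b (chr11:102925125-102925274, minus strand) holds CCAAT at 53 and at 30 bases before the start site and no CHR core. In Kif22 the CHR core begins 17 bases and in Cenpn 9 bases before the start site, and in Cenpw the box and the core share 1 base.
Kif22: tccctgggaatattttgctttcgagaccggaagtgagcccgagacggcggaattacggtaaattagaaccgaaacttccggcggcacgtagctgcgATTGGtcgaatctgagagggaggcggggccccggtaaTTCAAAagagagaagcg
Cenpn: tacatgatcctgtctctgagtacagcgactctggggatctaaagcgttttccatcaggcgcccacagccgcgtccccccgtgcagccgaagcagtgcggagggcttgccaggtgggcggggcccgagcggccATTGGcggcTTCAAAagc
Cenpw: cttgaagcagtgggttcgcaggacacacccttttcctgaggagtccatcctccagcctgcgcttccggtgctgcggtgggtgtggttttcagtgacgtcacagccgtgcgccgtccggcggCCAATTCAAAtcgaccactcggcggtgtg
Kif18b: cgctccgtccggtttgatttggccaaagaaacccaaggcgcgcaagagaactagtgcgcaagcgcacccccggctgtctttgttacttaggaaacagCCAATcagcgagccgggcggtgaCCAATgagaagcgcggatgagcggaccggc

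Values were taken as FPKM, fragments scaled by transcript length and library size, which allow levels of different genes to be compared. The unit is inferred, and so is a further quantile normalization between libraries. All 43 mitotic members and 19 of the 28 transport members reached 1 FPKM in at least 2 libraries and entered the tests. Of the 9 others, Kif2b and Kif4-ps were listed at 0 in all 12 libraries, and Kif7, a scaffold of Hedgehog signalling, stayed between 0.124 and 1.06 FPKM. The neuronal motors Kif1a (0.266 to 1.25 FPKM) and Kif5a (0.0238 to 0.349 FPKM) were also below the threshold, beside a list of neuron genes that summed to 2.11 to 12.9 FPKM over 10 genes. Kif12, Kif19a, Kif27 and Kif6 were the remaining 4. Among mitotic kinesins, mean FPKM over the 12 libraries ran from 1.24 for Kif14, a motor of cytokinesis, to 9.69 for Kif2c, which depolymerizes microtubules at the centromere. Centromere proteins ran from 2.23 for Cenpw to 38.0 for Cenpb, which binds a motif in centromeric satellite DNA. Kinases and passenger proteins ran from 11.2 (Incenp) to 23.9 (Birc5), checkpoint genes from 7.19 (Ttk) to 27.3 (Bub3), and kinetochore and spindle assembly genes from 4.46 (Ndc80) to 16.4 (Prc1). The highest of all members was Kif1c, a transport motor, at 60.2 FPKM.

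The libraries differed in the levels of tissue marker genes and in sex. Skin held skeletal muscle genes at a mean of 8.22 to 9.03 on the log2(FPKM + 1) scale, against 2.09 to 5.24 in tumours. Basal keratinocyte genes were present in every library (means of 6.26 to 6.95 in skin and 6.89 to 7.89 in tumours). Genes of the hair shaft and sheath varied within each group, from 1.10 to 7.12 in skin and from 0.93 to 6.49 in tumours. Trp63, whose gene-level value sums the TA and other isoforms and so does not check the deletion, lay at 84.5 to 119 FPKM in skin and 97.3 to 258 FPKM in tumours. By Xist and Y-linked genes, all 6 skin libraries were male, 5 tumours were female, and TAp63-/- cSCC 1 was the 1 male tumour. In bulk tissue, fewer cells of a type and less RNA per cell cannot be told apart.

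**Figure D1:**
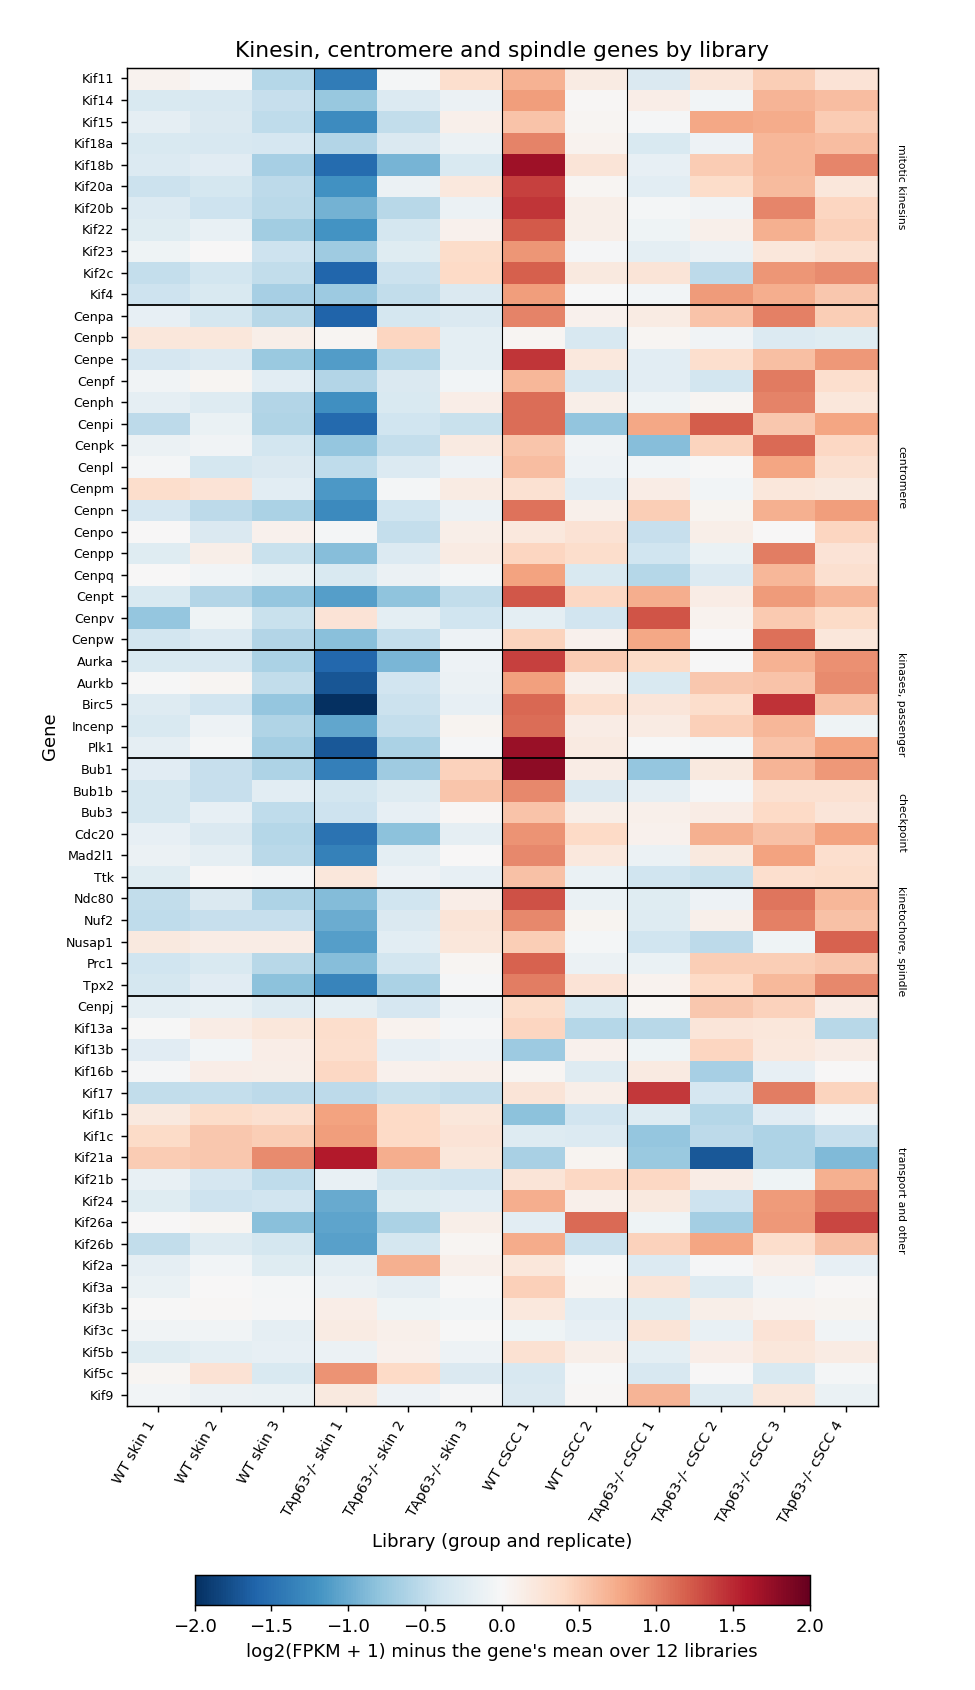
Log2(FPKM + 1) of the 62 tested members in each of the 12 libraries, each row centred on its mean and ordered by role. Rows of mitotic members are mostly higher in the 6 tumours, with TAp63-/- skin 1 lowest and WT cSCC 1 highest for most of them.

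Levels of the 43 mitotic members varied from library to library. Their mean on the log2(FPKM + 1) scale was 2.68, 2.71 and 2.44 in the 3 WT skin libraries and 1.92, 2.53 and 2.91 in the 3 TAp63-/- skin libraries. It was 3.83 and 2.95 in WT cSCC and 2.88, 3.06, 3.57 and 3.43 in TAp63-/- cSCC. TAp63-/- skin 1 was the lowest of all 12 libraries for 35 of the 43 members, and TAp63-/- skin 3 was the highest skin library for 30. WT cSCC 1 was the highest of all 12 libraries for 26 members, and TAp63-/- cSCC 1 the lowest tumour for 24. So of the 2 WT tumours 1 had the highest mean of all and 1 lay close to the skin range. How many of all genes tested had their highest or lowest value in the same libraries was not counted. These counts therefore do not show a pattern particular to the members. TAp63-/- skin 1 also had the lowest skin value of the hair list (1.10, against 3.36 to 7.12 in the other 5), the melanocyte list (1.66, against 3.12 to 4.05) and the wound keratinocyte list (3.46, against 4.43 to 6.08), and of the macrophage and neuron lists. It had the highest skin value of the muscle list (9.03, against 8.22 to 8.44), the adipocyte list (7.41, against 5.01 to 6.67) and the fibroblast list (8.58, against 7.21 to 8.36). Wound keratinocyte genes were at 9.66 to 11.7 in the 6 tumours, and 7 of 9 rose between tumours and skin. Among tumours, hair genes reached 6.49 in WT cSCC 2 and 1.05 in WT cSCC 1. The part of these tissues in the mitotic values was not tested.

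**Figure D2:**
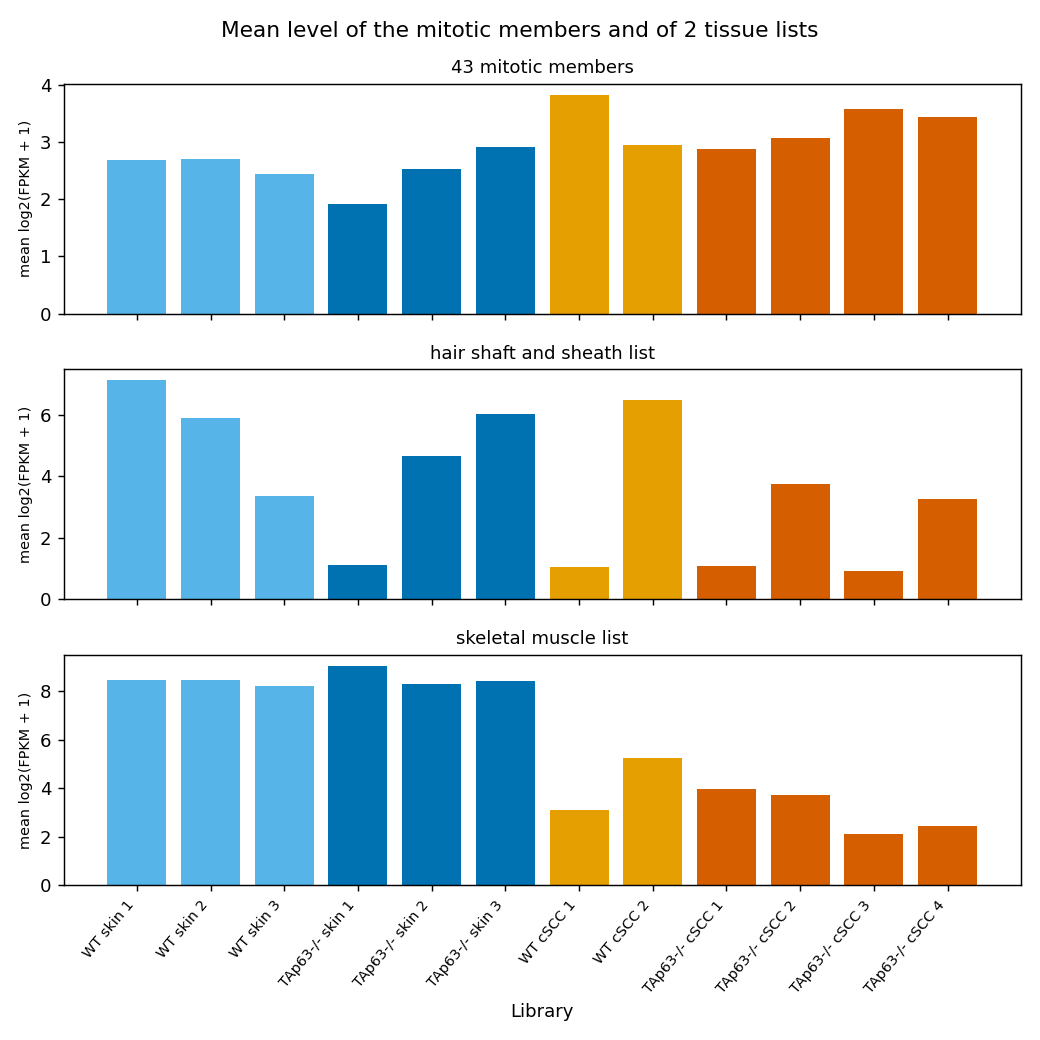
Mean log2(FPKM + 1) per library of the 43 mitotic members, the hair shaft and sheath list and the skeletal muscle list, by group. The mitotic mean is 1.92 to 2.91 in skin and 2.88 to 3.83 in tumours, while the hair list spans most of its range within groups.

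Which members differed between tumours and skin was tested as the mean of the WT and TAp63-/- differences, over all 12 libraries. Of the 62 tested members, 32 rose and 3 fell (limma, adjusted p below 0.05 over 14752 genes), where 19.1% of all genes tested rose and 18.4% fell. All 3 that fell are transport kinesins. Kif14 and Kif17 are among the 32, and both reached 1 FPKM in tumours only. The threshold for testing thus admitted them through the group where they are high, so their rise is not independent of it. Among the 43 mitotic members 28 rose and none fell, and the median log2 change was 0.85 against 0.07 over all genes tested. At an unadjusted p below 0.05, 30 of the 43 passed, against 47% of all genes tested, and 37.5% of all genes were called in either direction. Those 28 were 5 of 5 kinases and passenger proteins, 9 of 11 mitotic kinesins, 4 of 5 kinetochore and spindle assembly genes, 3 of 6 checkpoint genes and 7 of 16 centromere proteins. In 13 of the 43, all 6 tumours lay above all 6 skin libraries, against 11% of all genes tested, and in none below, against 10.9%. Kif14 is among these 13. The members differ in how firmly they were called. Without the 1 FPKM threshold, Aurkb, Cenph, Kif18a, Kif20a, Kif24, Kif2c, Ndc80 and Nuf2 were no longer called. Of 18 alternatives, 7 kept the call of Aurkb and 6 that of Kif2c. Calls over all genes tested also moved when libraries were left out, and their ranges are given at the end. Without WT cSCC 1, 9 members rose (Aurka, Cdc20, Cenpe, Cenpn, Cenpt, Kif18b, Kif21b, Kif4 and Tpx2) and 3 fell, and without WT skin 3 the calls came to 23. With sex as a covariate, where the 1 male tumour alone separates sex from tissue, 2 rose (Cenpt and Kif17) and 1 fell (Kif1c). Of these, Kif17 entered the tests through tumours only.

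Among the kinases, Aurka (chr2:172356190-172370535, mm10), the kinase of spindle poles, measured 33.2 and 17.7 FPKM in WT cSCC and 16.2, 12.2, 20.4 and 24.0 FPKM in TAp63-/- cSCC. It measured 9.67, 9.61 and 7.58 FPKM in WT skin and 3.44, 6.05 and 11.3 FPKM in TAp63-/- skin. Every tumour exceeded every skin library, by a narrow margin between TAp63-/- cSCC 2 and TAp63-/- skin 3, and the log2 change was 1.36 ± 0.27 (SE, adjusted p = 0.00304). Birc5, the passenger protein survivin, measured 45.7 and 25.5 FPKM in WT cSCC, and 23.8, 25.7, 55.9 and 30.5 FPKM in TAp63-/- cSCC. Its skin values were 16.6, 15 and 11.3 FPKM in WT and 3.94, 14.6 and 17.7 FPKM in TAp63-/-. Tumours and skin did not overlap for Birc5 (log2 change 1.38 ± 0.35, adjusted p = 0.0104). Plk1, the Polo kinase of mitotic entry and spindle assembly, was 34.9 FPKM in WT cSCC 1 but 9.60 to 17.9 FPKM in the other 5 tumours. Skin reached 9.64 FPKM for Plk1, so the groups overlapped slightly, and its log2 change was 1.19 ± 0.34 (adjusted p = 0.0195). Aurkb and Incenp, the kinase and the scaffold of the passenger complex, changed by 0.89 and 0.88 (adjusted p = 0.0417 and 0.0153).

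Spindle checkpoint genes were divided. Cdc20 (chr4:118432901-118437352), the activator of the anaphase-promoting complex that the checkpoint holds in check, measured 45.0 and 31.7 FPKM in WT cSCC and 25.3, 39.3, 36.0 and 42.2 FPKM in TAp63-/- cSCC. It measured 21.1, 19.3 and 15.6 FPKM in WT skin and 7.89, 13 and 20.8 FPKM in TAp63-/- skin. No skin library reached the lowest tumour for Cdc20 (log2 change 1.18 ± 0.23, adjusted p = 0.00252). Mad2l1 and Bub3, parts of the inhibitory checkpoint complex, rose by 0.84 and 0.54 (adjusted p = 0.0278 and 0.00958). Bub1, a kinase that recruits checkpoint proteins to kinetochores, had a log2 change of 1.09 ± 0.40, as large as that of many called members, and an adjusted p of 0.0524. Its tumour values ran from 3.25 to 23.9 FPKM, a wider relative range than that of Cdc20. Bub1b, which encodes BubR1, had a log2 change of 0.40 (adjusted p = 0.208). Ttk, the kinase at the head of the checkpoint, measured 11 and 6.34 FPKM in WT cSCC and 5.06, 4.85, 9.06 and 9.27 FPKM in TAp63-/- cSCC. In skin it measured 5.75, 7.09 and 6.92 FPKM in WT and 8.38, 6.44 and 6.13 FPKM in TAp63-/-. Ttk values of tumours and skin were interleaved, with a log2 change of 0.14 and a 95% interval of -0.30 to 0.59. TAp63-/- skin 1, the lowest skin library for most mitotic members, was the highest skin library for Ttk.

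In the kinetochore and spindle assembly group, Tpx2, which activates Aurora A and promotes microtubule growth near chromosomes, rose by 1.15 ± 0.26 (adjusted p = 0.00549). It measured 11.7 to 23.6 FPKM in the 6 tumours and 3.80 to 10.8 FPKM in the 6 skin libraries. Ndc80 and Nuf2, which form the microtubule-binding complex of the outer kinetochore, changed by 0.88 and 0.84 (adjusted p = 0.0467 and 0.0344). Prc1, which bundles microtubules of the central spindle, changed by 0.84 (adjusted p = 0.0199). Nusap1, which stabilizes spindle microtubules, was the exception at 0.23 (adjusted p = 0.594), with 10.1 to 35.2 FPKM in tumours and 6.41 to 17.6 FPKM in skin.

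Centromere proteins gave the member with the smallest adjusted p among those that rose. Cenpt (chr8:105844678-105852008), which links centromeric chromatin to the Ndc80 complex, measured 13.8 and 7.25 FPKM in WT cSCC and 9.27, 5.87, 10.3 and 8.95 FPKM in TAp63-/- cSCC. It measured 4.05, 3.14 and 2.64 FPKM in WT skin and 1.90, 2.58 and 3.43 FPKM in TAp63-/- skin. The lowest tumour stood above the highest skin library, and the log2 change was 1.39 ± 0.20 (adjusted p = 0.000436). Cenpa, the histone H3 variant that marks the centromere, changed by 1.11 ± 0.27 (adjusted p = 0.00809), with 15.3 to 29.5 FPKM in tumours and 4.03 to 12.6 FPKM in skin. Cenpe, a kinesin motor of the kinetochore that is named as a centromere protein, changed by 1.15 ± 0.27 (adjusted p = 0.00722). Cenpi, Cenpn, Cenph and Cenpw, parts of the inner kinetochore network, rose by 1.11, 1.10, 0.86 and 0.84. The other 9 of the 16 were not called. Cenpf changed by 0.38 and Cenpm by 0.19 (adjusted p = 0.284 and 0.551). Cenpb measured 38.6 and 29.8 FPKM in WT cSCC, 30.9 to 38.4 FPKM in TAp63-/- cSCC and 32.7 to 50.6 FPKM in skin. It was the 1 mitotic member with a negative value, -0.28 ± 0.14 (adjusted p = 0.134).

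All 11 kinesins of the mitotic list had positive log2 changes and 9 were called. Kif2a, of the same Kif2 family as Kif2c, was counted with the transport and other kinesins. It was at 10.2 to 14.8 FPKM in tumours and 10.4 to 21.2 FPKM in skin. Kif18b (chr11:102905529-102925124), which acts at microtubule plus ends to limit the length of astral microtubules, measured 17.7 and 5.85 FPKM in WT cSCC and 4.14, 7.21, 8.08 and 10.4 FPKM in TAp63-/- cSCC. It measured 3.74, 3.94 and 2.65 FPKM in WT skin and 0.98, 2.01 and 3.67 FPKM in TAp63-/- skin. The lowest tumour, TAp63-/- cSCC 1, exceeded the highest skin library by a small margin, and the log2 change was 1.39 ± 0.31 (adjusted p = 0.00515). Kif4, a chromokinesin that binds chromosome arms, measured 3.06 to 6.64 FPKM in tumours and 1.54 to 2.43 FPKM in skin (log2 change 0.95 ± 0.21, adjusted p = 0.0048). Kif2c and Kif20b, the latter a motor of cytokinesis, changed by 1.03 and 1.02 (adjusted p = 0.0467 and 0.0134). Kif11, the motor that pushes spindle poles apart, changed by 0.57 (adjusted p = 0.151), and Kif23, of the central spindle, by 0.42 (adjusted p = 0.169). Kif20a shares 29.3% of its exon bases with Cdc23 on the other strand and Kif4 shares 15.1% with Pdzd11. Whether counting used strand is not given in the sources used here, so reads of such partners cannot be told apart.

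**Figure D3:**
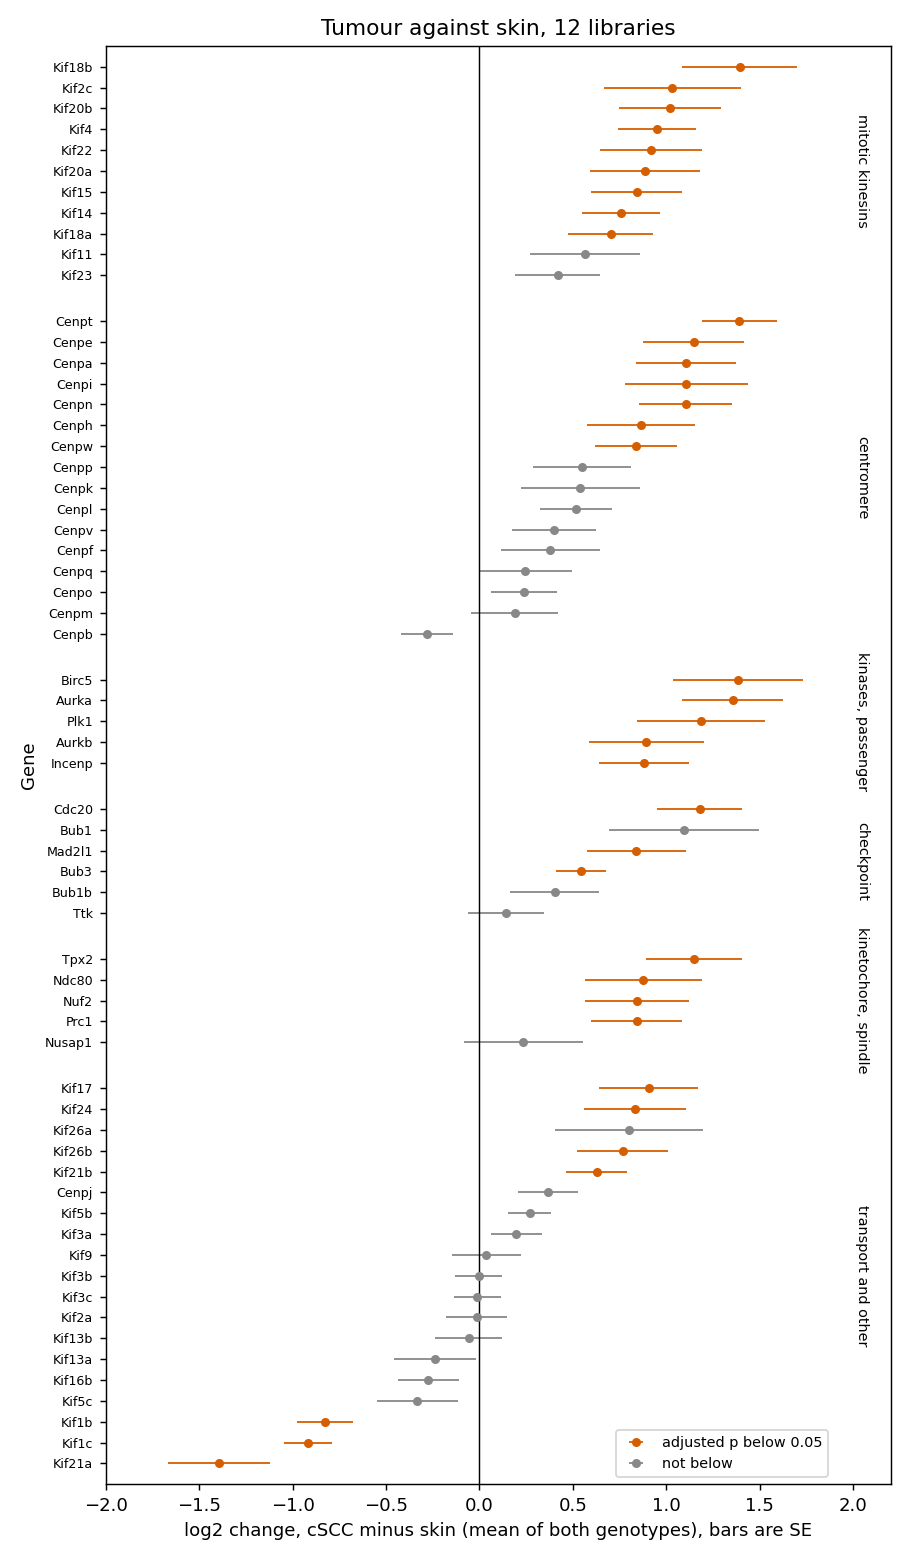
Log2 change between tumours and skin (mean of both genotypes) with its standard error for the tested members, by role. Mitotic members lie to the right of 0 except Cenpb (-0.28), whereas transport members lie on both sides, from -1.39 for Kif21a to 0.91 for Kif17.

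Of the 19 tested transport and other kinesins, 4 rose and 3 fell, shares near those of all genes tested (19.1% and 18.4%), and the median log2 change was -0.004. Kif1c (chr11:70700548-70731964), a motor for vesicle transport, measured 46.8 and 46.6 FPKM in WT cSCC and 32.6, 38.8, 36.3 and 40.9 FPKM in TAp63-/- cSCC. It measured 74.0, 82.3 and 80.2 FPKM in WT skin and 101, 74.5 and 68.4 FPKM in TAp63-/- skin. Every tumour lay below every skin library, and the log2 change was -0.92 ± 0.13 (adjusted p = 0.000343). Kif1b, a motor of mitochondria and vesicles, was 23.8 to 41.0 FPKM in tumours and 49.2 to 75.8 FPKM in skin (log2 change -0.83 ± 0.15, adjusted p = 0.00169). Kif21a, which restrains microtubule growth, was 2.59 to 11 FPKM in tumours and 12.6 to 33.7 FPKM in skin (log2 change -1.39 ± 0.27, adjusted p = 0.00263). Each of these 3 was highest in TAp63-/- skin 1, which was also the highest skin library for the muscle, adipocyte, fibroblast, suprabasal and basal keratinocyte, endothelial and T cell lists. Between tumours and skin, 14 of 14 muscle, 8 of 9 adipocyte, 6 of 8 fibroblast and 5 of 9 suprabasal genes fell. Of 9 basal genes 6 rose and 1 fell, of 8 endothelial genes 2 rose and 1 fell, and no T cell gene was called. Also falling were 6 of 7 Schwann cell genes and 8 of 8 melanocyte genes, lists in which TAp63-/- skin 1 was not the highest. The part of these tissues in the 3 kinesin values was not tested.

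Of the transport members that rose, Kif17, a motor of dendrites and cilia, was at 0 to 0.0556 FPKM in skin and 0.139 to 2.85 FPKM in tumours, a log2 change of 0.91 ± 0.27 (adjusted p = 0.0211). It reached 1 FPKM in only 2 libraries, both tumours, and so entered the tests through the group where it is high. Kif17 shares 1.62% of its exon bases with Sh2d5 on the same strand, and Sh2d5 was at 0.014 to 0.379 FPKM in skin and 11.6 to 22.6 FPKM in tumours. The part of Sh2d5 reads in the Kif17 value was not tested. Kif24, a centriolar kinesin that depolymerizes microtubules, Kif26b and Kif21b changed by 0.83, 0.77 and 0.63 (adjusted p = 0.0333, 0.0288 and 0.0118). Conventional kinesin Kif5b, at 32.3 to 47.7 FPKM, and the heterotrimeric kinesin subunits Kif3a and Kif3b were not called (log2 changes 0.27, 0.20 and -0.004).

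**Figure D4:**
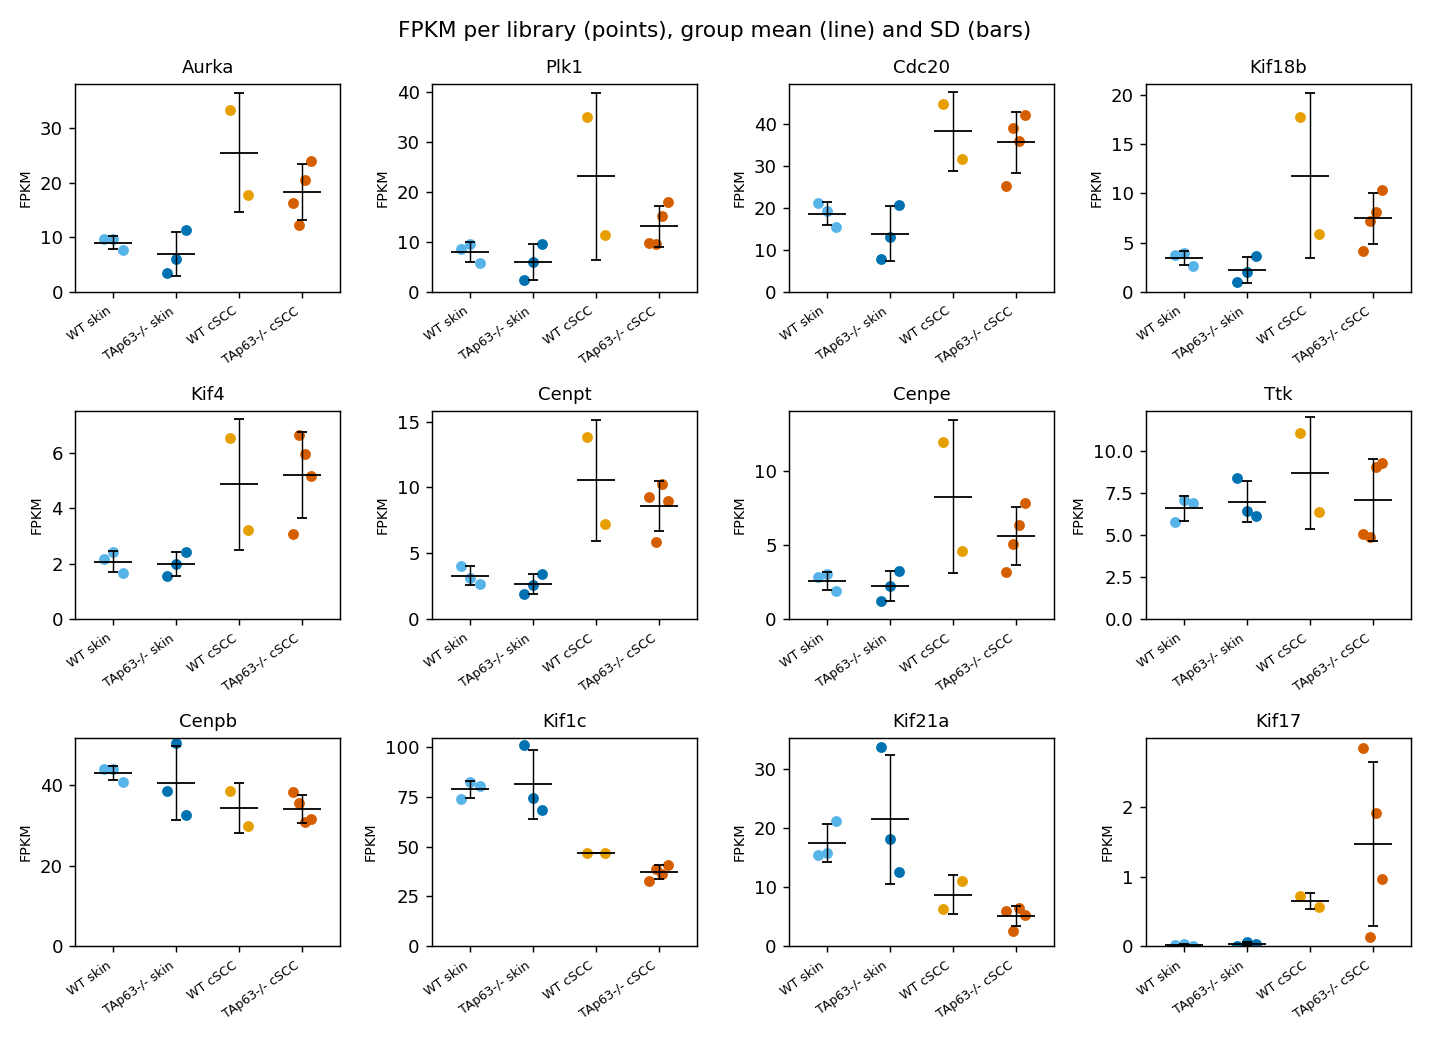
FPKM of 12 members in each library by group, with the group mean and SD. Aurka, Cdc20, Kif18b, Kif4 and Cenpt lie higher in both tumour groups than in skin, Kif1c and Kif21a lie lower, and Ttk and Cenpb overlap.

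Within each genotype, fewer members passed. In WT mice, Cenpt rose in tumours (1.38, adjusted p = 0.017) and Kif1b and Kif1c fell (-0.89 and -0.74, adjusted p = 0.0305 and 0.0341), where 4.66% of all genes tested rose and 6.77% fell (11.4% in all). At an unadjusted p below 0.05, 21 of the 43 mitotic members passed in WT, against 28.1% of all genes tested. Both WT tumours lay above all 3 WT skin libraries in 31 of the 43, against 27.3% of all genes tested, and below in 1, Cenpb, against 25.5%. The median log2 change of the mitotic members was 0.87. In WT mice too, calls over all genes tested moved when libraries were left out, with the range given at the end. Leaving out WT cSCC 2 gave 14 called members, leaving out WT skin 1 gave 1, and leaving out WT cSCC 1, WT skin 2 or WT skin 3 gave none. In TAp63-/- mice, 16 members rose and 3 fell, where 13% of all genes tested rose and 14.2% fell (27.2% in all). The 14 mitotic members among them were Aurka, Aurkb, Birc5, Cdc20, Cenpa, Cenpe, Cenpi, Cenpn, Cenpt, Cenpw, Kif15, Kif18b, Kif4 and Tpx2. Cenpi had the largest log2 change among the 14, 1.63 ± 0.42 (adjusted p = 0.0165), followed by Birc5 at 1.55 ± 0.45 (adjusted p = 0.0269). At an unadjusted p below 0.05, 24 of the 43 passed, against 40.2% of all genes tested. All 4 TAp63-/- tumours lay above all 3 TAp63-/- skin libraries in 15 of the 43, against 17.8% of all genes tested, and below in none, against 16.2%. The mitotic median in TAp63-/- mice was 0.77. Leaving out TAp63-/- skin 1 gave 4 called members, Cdc20 and Cenpt higher and Kif1c and Kif21a lower. The number of called members was 9 without TAp63-/- skin 2 and 11 without TAp63-/- cSCC 4. Over all genes tested, calls ran from 2432 to 4446 as each TAp63-/- library was left out, against 4017 with every library in.

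Whether the tumour-skin difference itself depended on genotype was tested as an interaction, and no member was called by limma, where 0.0271% of all genes tested were. No member passed at an unadjusted p below 0.05 either, against 3.01% of all genes tested. The members with the smallest p were Cenpi (1.04), Kif21a (-0.87) and Kif2a (-0.57). For Aurka the interaction was 0.00 with a 95% interval of -1.19 to 1.2, so a genotype difference of more than 2-fold in either direction remains within it. The numbers of calls in WT and TAp63-/- mice, 3 and 19, come from groups of unequal size.

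The 2 genotypes were next compared within each tissue. In skin, no member was called by limma, where 0.0203% of all genes tested were, and none passed at an unadjusted p below 0.05, against 5% of all genes tested. The median log2 change of mitotic members was -0.13, which turned to 0.12 without TAp63-/- skin 1. Aurka had a log2 change of -0.44 (95% interval -1.36 to 0.47) and Kif18b of -0.54 (-1.35 to 0.27). Kif3c and Kif5b, with Kif18b, had the smallest p. All 3 TAp63-/- libraries exceeded all 3 WT libraries for Kif3c (3.12, 2.95 and 2.66 FPKM against 2.51, 2.53 and 2.26 FPKM) and for Kif5b (35.6, 40.9 and 35.8 FPKM against 32.3, 33.4 and 34.3 FPKM). Their log2 changes were 0.19 and 0.16. Of all genes tested, 6.77% were higher in that way, and 3.85% were lower, among them no member. Kif3c shares 35.3% of its exon bases with an antisense gene.

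In tumours, no member was called by limma between genotypes (0% of all genes tested), and none passed at an unadjusted p below 0.05, against 2.84% of all genes tested. The mitotic median was -0.20, and it turned to 0.21 without WT cSCC 1. Aurka had a log2 change of -0.44 (95% interval -1.31 to 0.43), and Kif18b of -0.48 (-1.65 to 0.70). Cenpv, a protein that helps organize centromeric heterochromatin, measured 12.1, 4.71, 6.82 and 6.09 FPKM in TAp63-/- cSCC and 3.76 and 3.17 FPKM in WT cSCC. The 2 groups did not overlap for Cenpv, which 5.71% of all genes tested also showed, and the log2 change of 0.85 had a 95% interval of -0.05 to 1.74 (adjusted p = 1). Kif1c was lower in all 4 TAp63-/- tumours than in both WT tumours (-0.33), as were 4.14% of all genes tested. Kif21a, at -0.68, was the remaining member among the 3 with the smallest p.

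A list of 62 other genes of mitosis gives the setting for these members. Of its 58 tested genes, 32 rose and none fell between tumours and skin, where 19.1% of all genes tested rose and 18.4% fell. The median log2 change of the list was 0.82, against 0.07 over all genes tested. Ccnb1, the mitotic cyclin, rose by 0.85 (adjusted p = 0.0342). Cdk1, its kinase, Top2a, the topoisomerase of chromosome condensation, and Mki67, the proliferation marker Ki-67, had changes of 0.87, 0.75 and 0.71 (adjusted p = 0.0805, 0.138 and 0.083). Within males, TAp63-/- cSCC 1 lay above all 6 male skin libraries in 17 of the 43 mitotic members, where 37.4% of all genes tested did, and below all 6 in 3, where 29.9% did. Its mitotic mean of 2.88 lay inside the skin range of 1.92 to 2.91.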

How the data were processed

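RNA was sequenced from 12 libraries, and the reads were processed with TopHat2 2.0 and Cufflinks 2.0 on mm10, per the submitters' processing notes. The authors deposited 1 table of FPKM values. The unit is inferred from the tool and the values. In the deposited table all columns shared the same sorted values (100% of values of at least 1 FPKM within 1%), so quantile normalization is inferred, not stated. Read depth is unknown, and no counting interval is given. Tests used limma 3.58.1 (R 4.3.3) with a variance trend on log2(FPKM + 1), a scale that understates changes of low genes. The tests took the 14752 genes that reached 1 FPKM in 2 or more libraries, with Benjamini-Hochberg adjustment over all of them. Genotype comparisons used the 6 libraries of the tissue, and tumour-skin and interaction contrasts all 12. Comparisons between tissues share libraries with those between genotypes.

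The members, gene lists and tests were chosen with earlier results of these data known. Named genes were those called with the 3 largest changes per role and direction, those with the 3 smallest p where none was called, the highest and lowest level per role, members at 0, Aurka and Kif18b, and Mki67, Top2a, Ccnb1 and Cdk1. Other members were named after their values were seen. A planned correlation with the mitotic mean was not used, since the libraries form 2 tissue clusters. Alternatives were a pseudocount of 0.1, no filter, a filter of 5 FPKM, size factors, no variance trend, other libraries in the fit, each library left out and, chosen after seeing the data, sex as a covariate. Of the 71 members, all matched GENCODE identifiers, and 23 share exon bases with another gene.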

Additional observations from a re-analysis of the deposited data

Results flagged for a closer look

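Of the 62 tested members, 2 had 1 library far from the rest of its group of 4 TAp63-/- cSCC libraries, a test that flags about 1 group in 20 by chance. Nusap1 measured 35.2 FPKM in TAp63-/- cSCC 4, against 10.1 to 14 FPKM in the other 3. Prc1 measured 13.7 FPKM in TAp63-/- cSCC 1, against 21.6 to 22.5 FPKM in the other 3.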

How the results depend on the processing

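With sex as a covariate, called members went from 35 to 3 in the mean tumour-skin comparison (all genes 1458, mitotic median 0.342), from 19 to 4 in TAp63-/- mice (all genes 1939) and from 3 to 0 in WT mice (all genes 255, mitotic median 0.312). That fit rests on 1 male tumour. Fitting only the WT libraries gave 5 called members. Over all genes, the skin genotype comparison gave 5 calls with a pseudocount of 0.1, and the tumour genotype comparison gave 3 with no filter and 1 with all 12 libraries. Calls of Cenpt and Kif1c were kept under every alternative run in the mean and TAp63-/- comparisons. In the mean comparison, Aurkb, Cenph, Kif18a, Kif20a, Kif24, Kif2c, Ndc80 and Nuf2 lost their calls with no filter. Aurkb and Kif2c also lost theirs with size factors.

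Leaving out each library in turn gave 12 to 39 called members in the mean comparison (all genes 3811 to 6041, mitotic median 0.618 to 1.071), 4 to 21 in TAp63-/- mice (2432 to 4446, 0.446 to 1.061) and 0 to 14 in WT mice (464 to 1907, 0.455 to 1.304). Members called were 12 without WT cSCC 1 and 23 without WT skin 3 in the mean comparison. In TAp63-/- mice they were 4 without TAp63-/- skin 1, 9 without TAp63-/- skin 2 and 11 without TAp63-/- cSCC 4. In WT mice they were 14 without WT cSCC 2, 1 without WT skin 1 and 0 without WT cSCC 1, WT skin 2 or WT skin 3. Genotype comparisons and the interaction gave 0 to 0 called members, with all genes 3 to 8 (skin), 0 to 11 (tumours) and 1 to 15 (interaction), and mitotic medians of -0.396 to 0.12, -0.57 to 0.212 and -0.43 to 0.419. Without either WT tumour, the other is assumed to vary like the other groups. The cause of these shifts was not tested. No paired analysis was possible because the labels give no replicate numbers that groups share. Unknown depth and 2 to 4 libraries per group limit precision.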
